A study of Mus musculus with 10 samples.

Results

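Cytoplasmic ribosomal proteins and translation factors were followed in the prefrontal cortex of mice with collagen-induced arthritis. Members were taken by gene symbol from the array's annotation, namely the numbered Rpl and Rps genes, the Eif1 to Eif6 genes and the Eef1 and Eef2 genes, without the Rps6k and Eif2ak kinases. The rule gave 59 of the 8726 genes with a spot of their own on the array, and these had 61 spots. Large-subunit proteins (Rpl) made up 22 genes on 23 spots and small-subunit proteins (Rps) 14 genes on 15 spots. Initiation factors and their partners (Eif) made up 19 genes and genes with Eef symbols 4 genes, each with 1 spot.

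Male DBA/1 mice, an inbred strain prone to this arthritis, were 8 weeks old. The collagen arm received type II collagen (100 µl) mixed with Complete Freund's adjuvant (100 µl), and the control arm received the adjuvant alone (200 µl), so that collagen and the adjuvant volume differ together. Both arms received LPS, a bacterial endotoxin, at day 24, so the controls were immune-stimulated animals too. RNA of both arms was hybridised together on each 2-colour oligonucleotide array. The 10 arrays form 5 dye-swap pairs, in each of which collagen RNA carried Cy5 on one array and Cy3 on the other. Titles number the pairs 1, 2, 3, 1 and 2, and the series text speaks of 3 biological replicates. Pairs 1 and 4 were averaged as replicate 1 and pairs 2 and 5 as replicate 2, and pair 3 was replicate 3. The labels do not tie a number to separate animals, so the spread between replicates may in part be technical. The files name channels A and B without a dye. Taking A as Cy3 makes every direction below likely rather than settled, and with the letters the other way round every sign would turn while every size would stay.

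A ribosome is built of a large and a small subunit, each of ribosomal RNA and many proteins that are made in near-equal amounts. Initiation factors load the initiator tRNA and the small subunit onto capped mRNA and find the start codon, and elongation factors then bring in aminoacyl-tRNA and move the ribosome along. Messenger RNAs of vertebrate ribosomal proteins and of several factors begin with a terminal oligopyrimidine (TOP) tract, a C followed by a run of C and T, through which their translation is controlled together downstream of mTOR. In neurons, protein synthesis at synapses is needed for lasting changes in synaptic strength, and eIF2, eIF4E and the eIF4E-binding protein Eif4ebp2 are well-studied control points there.

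The start sites of the members were searched for this opening, which stood at 6 of their 58 annotated starts. The RefSeq promoter table (GRCm38.p6) held 48 of the 59 genes, 7 of them with several annotated starts, and the other 11 were Eef1akmt1, Eif3e, Eif4e3, Eif6, Rpl29, Rpl3, Rpl32, Rpl8, Rps20, Rps29 and Rps4l. The motif searched was a C at the first annotated base followed by at least 4 bases that are C or T, read on the gene's own strand. It stood at 5 of the 35 starts of ribosomal protein genes (14.3%), at 1 of the 20 starts of Eif genes (5%) and at 0 of the 3 starts of Eef genes, against 823 of the 32851 starts in the whole table (2.51%). A start without it shows only that these letters are not at that annotated base. The 6 starts that hold it are printed from 20 bases before the start to 25 bases from it on, with the pyrimidine tract in capitals. The starts of Rpl27 and Rps4x, the ribosomal protein genes with the lowest ratios below, follow with no capitals, since neither begins with the motif. Rpl35 lies at chr2:39005107-39005151 (minus strand), Rpl38 at chr11:114668560-114668604 (plus), Rps10 at chr17:27635220-27635264 (minus), Rps27 at chr3:90213624-90213668 (minus), Rps6 at chr4:86857343-86857387 (minus) and Eif3f at chr7:108934395-108934439 (plus). Rpl27 lies at chr11:101442225-101442269 (plus) and Rps4x at chrX:102189367-102189411 (minus).
Rpl35: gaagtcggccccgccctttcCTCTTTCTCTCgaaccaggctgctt
Rpl38: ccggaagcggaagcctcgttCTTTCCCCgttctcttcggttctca
Rps10: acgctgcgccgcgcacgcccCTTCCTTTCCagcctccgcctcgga
Rps27: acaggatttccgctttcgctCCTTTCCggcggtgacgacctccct
Rps6: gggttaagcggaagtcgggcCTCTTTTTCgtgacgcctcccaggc
Eif3f: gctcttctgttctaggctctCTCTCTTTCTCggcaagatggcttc
Rpl27: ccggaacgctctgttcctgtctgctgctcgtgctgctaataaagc
Rps4x: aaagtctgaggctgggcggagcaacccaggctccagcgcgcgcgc

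Ribosomal protein spots were among the brightest on the arrays, but many of them were seen in only part of the series. Brightness is given as a spot's percentile among the 9078 annotated spots of an array, averaged over arrays. In pairs 3 to 5 the 38 ribosomal protein spots had a median percentile of 93.0 (range 24.9 to 98.1), and 29 of them lay above 90. The 19 Eif spots had a median of 64.6 there (18.3 to 96.7). Of the 61 member spots, 18 were measured in both channels on all 6 arrays of pairs 3 to 5 but on at most 1 of the 4 arrays of pairs 1 and 2, against 14.3% of all annotated spots. They were 10 Rpl, 4 Rps, 3 Eif and 1 Eef spots. Rps15, a protein near the decoding centre, averaged the 97.9th percentile in pairs 3 to 5 and the 18.8th in pairs 1 and 2. Rpl26, which lies by the exit tunnel, averaged the 97.7th and the 27.3rd. By contrast Rpl32, a structural protein of the large subunit, averaged the 96.6th and the 99.1st and was measured on all 10 arrays. The pattern was not limited to the translation genes. Of the 450 other annotated spots above the 90th percentile in pairs 3 to 5, 169 (37.6%) were measured on at most 1 array of pairs 1 and 2, as were 14 of the 31 member spots of that brightness (45.2%). Spearman correlations of brightness over the annotated spots were 0.79 to 0.82 between arrays of pairs 1 and 2, 0.32 to 0.87 between arrays of pairs 3 to 5, and 0.11 to 0.34 between arrays of the different sets. Some arrays within pairs 3 to 5 were thus no more alike than the most alike arrays of different sets. The reason for these differences was not tested, and results below are given for both sets of members.

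**Figure D1:**
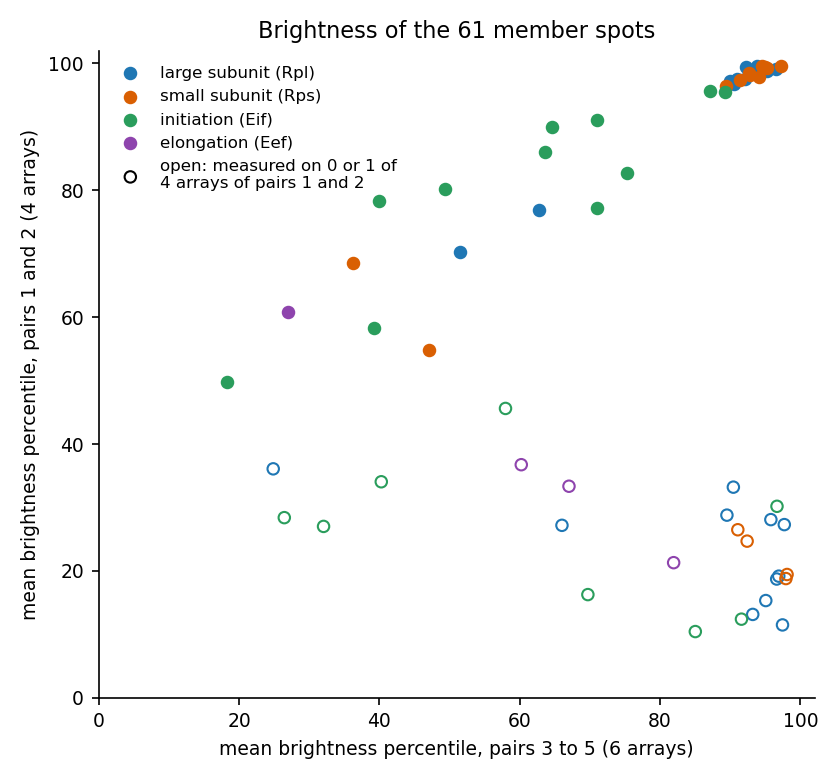
Mean brightness percentile of each of the 61 member spots in pairs 3 to 5 (horizontal axis, 6 arrays) and in pairs 1 and 2 (vertical axis, 4 arrays), coloured by subgroup. Open points were measured in both channels on 0 or 1 of the 4 arrays of pairs 1 and 2, and a group of them with percentiles near or above 90 in pairs 3 to 5 sits at the lower right.

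Arrays measured 34 to 61 of the 61 member spots in both channels, with 34 to 43 in pairs 1 and 2 and 52 to 61 in pairs 3 to 5. A value in each of the 3 replicates was obtained for 47 spots of 45 genes, of which 22 were Rpl, 13 Rps, 11 Eif and 1 Eef. Of these, 26 had a value in all 5 pairs and 18 in pairs 3, 4 and 5 only. The other 14 spots were not tested. They were the paralogs Rpl3l and Rps4l, Rps19, the factors and partners Eif1ad, Eif2b1, Eif2b2, Eif3a, Eif3k, Eif4e3, Eif4ebp2 and Eif4enif1, and the Eef genes Eef1akmt2, Eef1aknmt and Eef1e1.

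No member differed between collagen and control mice at an adjusted p under 0.05 in limma, and none did at an unadjusted p under 0.05. Over all 4125 tested spots the shares were 0% (0 spots) at the adjusted and 6.67% (275 spots, 100 higher and 175 lower) at the unadjusted threshold. The members' adjusted p-values ran from 0.643 to 0.997. Their log2 ratios of collagen over control ran from -0.27 to 0.25, with standard errors (SE) of 0.089 to 0.22. In bulk tissue such as this, fewer cells of a type and less RNA per cell cannot be told apart.

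Most member ratios were nevertheless small and above 0. The ratio was above 0 for 39 of the 47 spots, namely 19 of 22 Rpl, 12 of 13 Rps, 8 of 11 Eif and 0 of 1 Eef, where 45.5% of all tested spots were above 0. It was above 0 in all 3 replicates for 25 spots (13 Rpl, 7 Rps and 5 Eif) and below 0 in all 3 for 2 spots, against 14.4% and 21.3% of all tested spots. Median log2 ratios were 0.10 for Rpl, 0.14 for Rps and 0.13 for Eif, and 0.11 over the 47 spots, against -0.019 over all tested spots. Taken per replicate, the median over the members averaged 0.11 ± 0.041 (SD, n = 3), that over Rpl 0.10 ± 0.040, over Rps 0.12 ± 0.069 and over Eif 0.11 ± 0.087. These are descriptions of a list, with no test, and the subgroups' medians lie within one another's spread over replicates. They also moved with the processing: the Rpl median was 0.044 without pair 4, the Eif median was 0.075 without replicate 3, and median centring gave 0.14 for Rpl, 0.19 for Rps and 0.041 for Eif.

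The size of the shift differed between pairs. Medians of the ribosomal protein spots were 0.048, 0.023, 0.12, 0.25 and 0.070 in pairs 1 to 5, while those of all tested spots were 0.0035, 0.022, -0.071, -0.040 and -0.0019. Pair 4 was highest, and pair 2 lay at the level of all spots. All 13 Rps spots were above 0 in pair 4 (0.18 to 0.58), but only 3 of the 9 measured in pair 2 were. Eif spots followed another order, with medians of 0.039, 0.023, 0.21, 0.039 and 0.13, highest in pair 3. The members measured in all 5 pairs had a median of 0.10 (20 of 26 above 0) and those measured in pairs 3 to 5 only a median of 0.12 (16 of 18 above 0). Both sets were read on the same arrays of pairs 3 to 5, so they are not separate observations of the shift. Members measured in all 5 pairs had medians of 0.050 and 0.015 in pairs 1 and 2, against 0.13, 0.24 and 0.070 in pairs 3 to 5. All tested spots of the same kinds had medians of -0.0069 (48.2% above 0) and -0.051 (39.0% above 0). Within each pair ribosomal protein ratios had a smaller SD over spots than all tested spots, a difference that was not tested. The spots were not matched for brightness. This SD was 0.059, 0.087, 0.25, 0.16 and 0.12 in pairs 1 to 5, against 0.20, 0.19, 0.35, 0.27 and 0.20 over all tested spots.

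**Figure D2:**
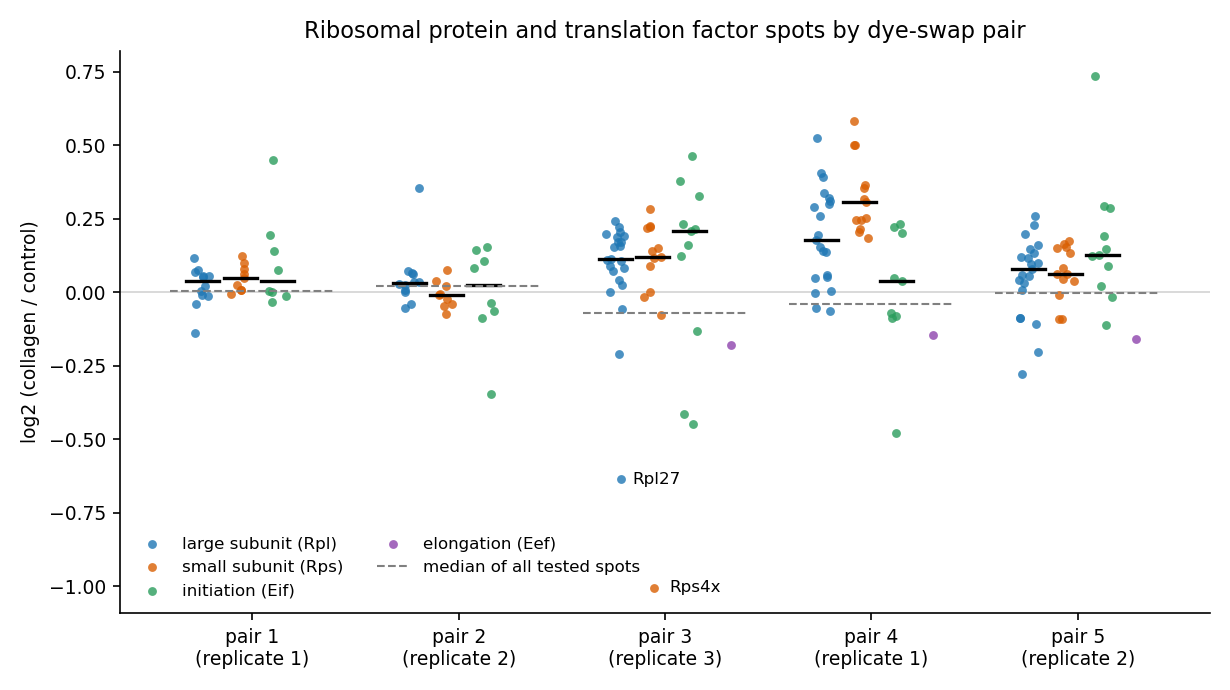
Log2 ratio of collagen over control of each tested member spot in each dye-swap pair, coloured by subgroup, with black bars at subgroup medians and dashed lines at the median of all tested spots. Ribosomal protein spots sit closest to 0 in pairs 1 and 2 and highest in pair 4, and Rps4x and Rpl27 lie far below the others in pair 3.

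Dye orientation moved the ribosomal protein spots by more than that. On the arrays with collagen on Cy5 their medians were 0.29, -0.092, 0.33, 0.72 and 0.27 in pairs 1 to 5, above 0 on 4 of 5 arrays. On the arrays with collagen on Cy3 they were -0.14, 0.076, -0.032, -0.20 and -0.13, above 0 on 1 of 5 arrays. The positive mean of a pair therefore came from ratios of opposite sign on its arrays in pairs 1, 3, 4 and 5, and also, the other way round, in pair 2. Over all tested spots the array medians lay between -0.045 and 0.058 with collagen on Cy5 and between -0.076 and -0.024 with collagen on Cy3. Medians of the Eif spots were more even, but single Eif spots were not. Eif2s2 ranged from -1.97 on an array with collagen on Cy5 to 1.49 on one with collagen on Cy3. Ratios of Cy5 over Cy3 were above 0 for 7 tested Eif spots and below 0 for 4. Among ribosomal protein spots these counts were 32 and 3, and 58.3% of all tested spots had a ratio of Cy5 over Cy3 above 0. Whether these counts bear on the evenness of the Eif medians was not tested. The Eif medians were 0.013, 0.059, 0.24, 0.15 and 0.19 with collagen on Cy5 and 0.17, 0.020, 0.22, -0.066 and 0.12 with collagen on Cy3, above 0 on 9 of 10 arrays. Averaged over replicates, the median of all members was 0.31 from the arrays with collagen on Cy5 alone and -0.064 from those with collagen on Cy3 alone. Each pair mean holds both orientations equally. Fits to the 10 arrays with a replicate block gave the members a median of 0.11 without a dye term (41 of 47 above 0). With a dye term the median was 0.11 as well (40 of 47 above 0). With 5 arrays in each orientation, that term could hardly move the collagen ratios. The part of the dye in the shift was therefore not tested by it.

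**Figure D3:**
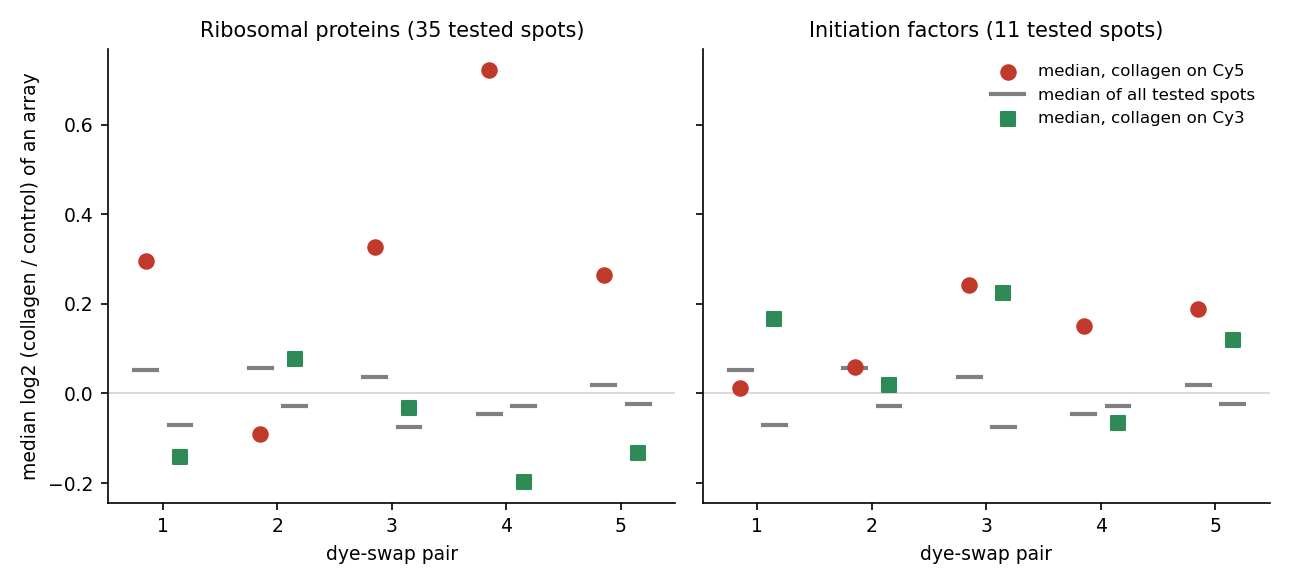
Median log2 ratio of collagen over control on each array, for the ribosomal protein spots (left panel) and the initiation factor spots (right panel), by dye-swap pair. Circles are arrays with collagen on Cy5, squares those with collagen on Cy3 and grey bars the median of all tested spots on that array; the ribosomal protein medians lie on opposite sides of 0 within each of the 5 pairs.

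The dye itself was measured on the same spots as the ratio of Cy5 over Cy3, without regard to treatment. Its median was 0.20 over the members, with 40 of 47 spots above 0, against 0.048 over all tested spots. The size of this shift depended on the normalisation, since the members' median was 0.078 (35 of 47 above 0) with print-tip loess and 0.52 (40 of 47 above 0) with median centring, against 0.019 and 0.069 over all tested spots. By subgroup it was 0.22 for Rpl, 0.22 for Rps and 0.073 for Eif. Bright spots in general showed less of it, since the 450 other spots above the 90th percentile in pairs 3 to 5 had a dye median of 0.024 and 55.6% of them were above 0, against 29 of 31 member spots of that brightness. Those other bright spots had a collagen median of 0.015 with 56.0% above 0, and the 31 members one of 0.12 with 28 above 0. At an adjusted p under 0.05, 1 member differed between dyes in limma, where 2.13% of all tested spots did. At an unadjusted p under 0.05, 11 members did (8 brighter in Cy5 and 3 in Cy3), where 20.1% of all tested spots did. The members' share is close to that background. The 4 members highest in Cy5 were Rpl35 (log2 Cy5 over Cy3 0.44 ± 0.12 SE), Rpl10a (0.41 ± 0.12), Eef1akmt1 (0.37 ± 0.11) and Rpl37a (0.36 ± 0.13). The 4 lowest were a Rpl11 spot (-1.58 ± 0.18, adjusted p = 0.00432), Eif2s2 (-0.55 ± 0.16), Eif4e (-0.37 ± 0.11) and Rpl7l1 (-0.30 ± 0.16). All of these but the Rpl11 spot had adjusted p-values of 0.116 or more. The Rpl11 spot was no longer called with print-tip loess (-0.98), with median centring (-1.67) or without pair 3 (-1.76), and without pair 1 or pair 2 it was not tested. Print-tip loess left Rpl35 at 0.011, Rpl10a at 0.078, Rpl37a at 0.077 and Eif4e at -0.015, and median centring put Rpl35 at 0.70, Rpl10a at 0.78 and Rpl37a at 0.65. Eif2s2 had -0.16 from pairs 3 to 5 only.

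**Figure D4:**
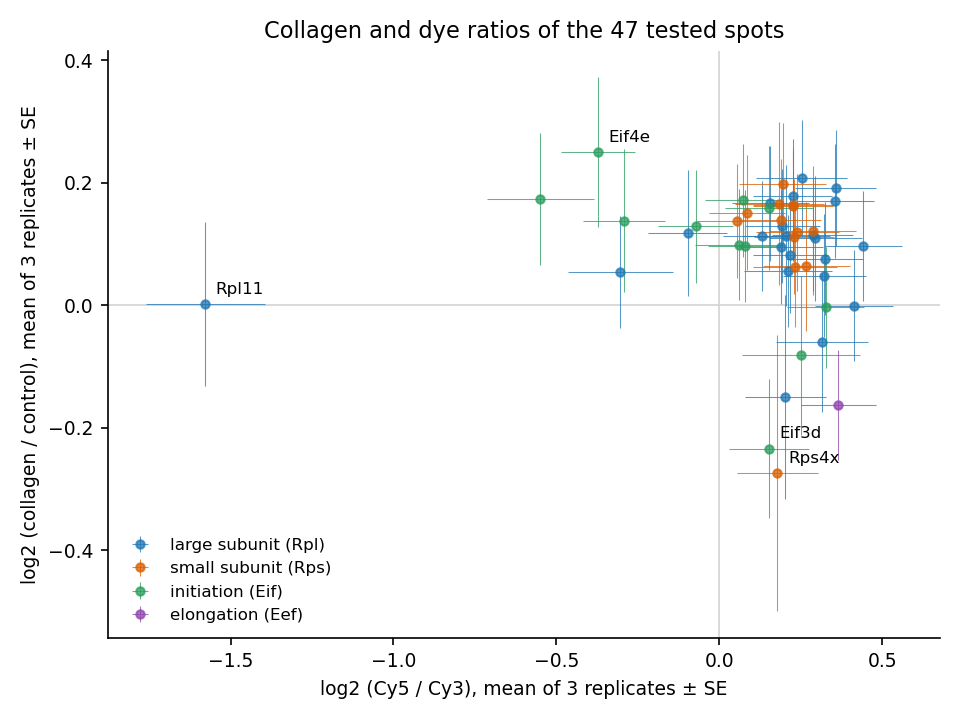
Log2 ratio of collagen over control (vertical axis) and of Cy5 over Cy3 (horizontal axis) of the 47 tested member spots, with SE bars from limma (n = 3 replicates), coloured by subgroup. Most spots lie above 0 on both axes, and a Rpl11 spot lies far to the left with a dye ratio of -1.58 and a collagen ratio near 0.

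Among the large-subunit proteins the highest ratios belonged to Rpl36al, Rpl37a, Rpl32, Rpl11 and Rpl37, all structural proteins of the subunit. Rpl36al had log2 ratios of 0.19, 0.31 and 0.12 in pairs 3 to 5, for a mean of 0.21 ± 0.094 (SE, n = 3 replicates, adjusted p = 0.643 in limma). Rpl37a had 0.19, 0.29 and 0.098 in the same pairs, for a mean of 0.19 ± 0.094. Both were above 0 in each of the 3 pairs that measured them, and neither passed the test. Rpl32 was above 0 in every pair, at 0.12, 0.073, 0.24, 0.30 and 0.097, for a mean of 0.18 ± 0.093. On single arrays it was not: with collagen on Cy5 its ratios were 0.34, 0.063, 0.39, 0.87 and 0.37, and with collagen on Cy3 -0.11, 0.082, 0.094, -0.27 and -0.17. As deposited, before normalisation, its background-subtracted intensity in the collagen channel had a lowest, median and highest value of 482409, 2207858 and 3782170 over the 10 arrays, and in the control channel 254951, 2617203 and 4034450. The channels overlapped almost fully, the collagen channel being the brighter on 5 of 10 arrays and the Cy5 channel on 8 of 10. Rpl37 had 0.076, -0.040, 0.20, 0.40 and 0.16, for a mean of 0.17 ± 0.094, with pair 2 alone below 0.

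Rpl11, which binds 5S ribosomal RNA and can restrain Mdm2, was read by a pair of spots that disagreed. The first spot averaged the 33.2nd brightness percentile in pairs 1 and 2 and the 90.4th in pairs 3 to 5. It had ratios of 0.11, 0.26 and 0.15 in pairs 3 to 5 (mean 0.17 ± 0.093) and a dye ratio of 0.35 ± 0.12. The second spot averaged the 70.3rd percentile in pairs 1 and 2 and the 51.5th in pairs 3 to 5. It had ratios of -0.14, 0.35 and -0.21 in pairs 1 to 3, for a mean of 0.0021 ± 0.13. On single arrays the second spot's ratio swung with the dye. It was -1.54, -1.78, -1.41 and -1.92 on the measured arrays with collagen on Cy5. On those with collagen on Cy3 it was 1.26, 2.48, 0.99 and 0.22. The dye ratio of this spot was therefore many times its collagen ratio, and no pair measured both spots except pair 3.

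The lowest large-subunit ratios were those of Rpl10a, Rpl29 and Rpl27. Rpl10a, part of the stalk that helps release spent tRNA, stayed near 0 in every pair, between -0.058 and 0.079, for a mean of -0.00057 ± 0.091. Rpl29 had 0.15, -0.055 and -0.28 in pairs 3 to 5, for a mean of -0.060 ± 0.11. Rpl27 had 0.055, -0.053, -0.64, 0.32 and 0.054, for a mean of -0.15 ± 0.17. The mean of Rpl27 was set by pair 3, where both dye orientations were below 0 (-0.58 with collagen on Cy5 and -0.69 with collagen on Cy3), and without that replicate it was 0.094. The other tested large-subunit spots, Rpl3, Rpl7a, Rpl8, Rpl9, Rpl10, Rpl13a, Rpl22, Rpl24, Rpl26, Rpl34, Rpl35, Rpl38 and the paralog Rpl7l1, had means between 0.048 and 0.13. Rpl3, close to the peptidyl transferase centre, had 0.22, -0.065 and 0.20 in pairs 3 to 5, and Rpl13a, known also for silencing inflammatory mRNAs in myeloid cells after its release from the ribosome, had -0.0085, 0.064, 0.17, 0.18 and -0.087.

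Among the small-subunit proteins Rps27, Rps15, Rps12, Rps25 and one Rps29 spot stood highest by moderated t. Rps27 had 0.22, 0.32 and 0.061 in pairs 3 to 5, for a mean of 0.20 ± 0.099. Rps15 had nearly the same ratio in each of those pairs, 0.15, 0.18 and 0.15, for a mean of 0.16 ± 0.089 (adjusted p = 0.643 in limma). Its evenness was only over pairs, since single arrays gave 0.20, 0.56 and 0.40 with collagen on Cy5 and 0.10, -0.20 and -0.10 with collagen on Cy3. Rps12 had 0.080, -0.0079, 0.22, 0.31 and 0.16, for a mean of 0.16 ± 0.093. Rps25, a protein that some viral internal ribosome entry sites need, had -0.0051, 0.023, 0.23, 0.35 and 0.083, for a mean of 0.15 ± 0.094. Both were lower in pairs 1 and 2 than in any of pairs 3 to 5. Rps29 was read by a pair of bright spots that gave similar means, 0.14 ± 0.093 and 0.17 ± 0.13. They differed within pairs, at 0.12, 0.36 and 0.13 for the first spot and 0.088, 0.50 and -0.091 for the second in pairs 3 to 5.

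Rps16, Rps6 and Rps4x were the lowest. Rps6, the protein that S6 kinases phosphorylate downstream of mTOR, had 0.0081, 0.038, -0.077, 0.50 and -0.010, for a mean of 0.064 ± 0.11. Only pair 4 stood away from 0. Rps16 had 0.062, -0.048, 0.12, 0.22 and -0.091, for a mean of 0.062 ± 0.097. Rps4x, encoded on the X chromosome like Rpl10, had 0.0083, 0.075, -1.005, 0.24 and 0.037, for a mean of -0.27 ± 0.22 (adjusted p = 0.679 in limma). It was the lowest of all members, and this came from pair 3 alone, where both arrays were below 0 (-0.67 with collagen on Cy5 and -1.34 with collagen on Cy3). Without that replicate the mean was 0.091. Ratios of Rps7, Rps10, Rps13 and Rps20 averaged 0.11 to 0.14.

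Of the 6 genes whose annotated start holds the TOP motif, all were tested and had ratios above 0, from 0.064 for Rps6 to 0.20 for Rps27. Over all members 39 of the 47 tested spots were above 0, and whether the ratio goes with the motif was not tested. Rpl35 averaged 0.096 ± 0.090, Rpl38 0.11 ± 0.10, Rps10 0.11 ± 0.094 and Eif3f 0.097 ± 0.091. Starts without the motif belonged to genes at both ends of the range, such as Rpl36al at 0.21 and Rps4x at -0.27.

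Among the initiation factors the SD over spots was 0.16, 0.17, 0.30, 0.22 and 0.22 in pairs 1 to 5. Eif4e, the cap-binding protein, had a mean ratio of 0.25 ± 0.12 (adjusted p = 0.643 in limma), the highest of the members as processed here. That rank did not hold throughout, since Eif4e was at 0.078 with median centring, 0.048 with the background added back, 0.14 without replicate 3 and 0.11 without pair 5. It had -0.035 and -0.089 in pairs 1 and 2, against 0.46 and 0.73 in pairs 3 and 5, with no value in pair 4, so the replicates that lie above 0 rest on the later pairs. Single arrays with collagen on Cy3 all gave positive ratios, at 0.33, 0.24, 0.89, 0.34 and 1.07, whereas those with collagen on Cy5 gave -0.40, -0.41, 0.036 and 0.40. Eif6, which keeps the large subunit from joining too early, had 0.19, 0.15, 0.23 and 0.019 in pairs 1, 2, 3 and 5, for a mean of 0.17 ± 0.093. It was above 0 in each of those 4 pairs. Eif4h, a helper of the eIF4A helicase, averaged -0.0031 ± 0.099, with pairs between -0.13 and 0.15.

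Eif2s2 encodes the beta subunit of eIF2, the factor that carries initiator tRNA. It had 0.45, -0.34, 0.21, 0.22 and 0.29, for a mean of 0.17 ± 0.11, and pairs 1 and 2 lay further apart than any pairs among 3 to 5. Its dye ratio of -0.55 was larger than its collagen ratio. Eif1b, a relative of the start-codon factor eIF1, had 0.14, -0.064, 0.33, -0.070 and 0.29, for a mean of 0.16 ± 0.10. Its sign changed between the pairs averaged as 1 replicate, in both replicates 1 and 2. The eIF2B subunits Eif2b1 and Eif2b2, of the exchange factor that recharges eIF2, were not tested. Eif2b1 had values in pairs 3 and 5 (-0.80 and -0.028) and Eif2b2 in pair 3 (-0.47).

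The eIF3 complex, the scaffold that holds the small subunit to the cap-bound factors, had 6 tested subunits, of which 4 were above 0. Eif3j1, a loosely attached subunit, had -0.00075, 0.14, 0.21, 0.23 and -0.018, for a mean of 0.13 ± 0.092. Eif3c, Eif3e and Eif3f were measured in pairs 3 to 5 only and averaged 0.14, 0.099 and 0.097. Eif3m averaged -0.081 ± 0.13, with -0.41 in pair 3 against 0.20 and 0.19 in pairs 4 and 5. Eif3d, a subunit that can itself bind the cap of some mRNAs, had 0.0039, 0.083, -0.45, -0.48 and -0.11, for a mean of -0.23 ± 0.11 (adjusted p = 0.643 in limma). It was the only Eif spot below 0 in all 3 replicates, and it lay close to 0 in pairs 1 and 2. Members of 1 complex thus lay on both sides of 0, and none passed the test.

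The Eef group holds no elongation factor proper. Eef1akmt1, Eef1akmt2 and Eef1aknmt encode methyltransferases that modify eEF1A, and Eef1e1 a scaffold protein of the aminoacyl-tRNA synthetase complex. Eef1akmt1 was the one that could be tested, with ratios of -0.18, -0.15 and -0.16 in pairs 3, 4 and 5 and a mean of -0.16 ± 0.089 (adjusted p = 0.643 in limma). The pairs hardly differed, but each was the mean of a positive and a negative array, at 0.24, 0.14 and 0.22 with collagen on Cy5 and at -0.61, -0.44 and -0.54 with collagen on Cy3.

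Other genes of the translation machinery, from lists that are not part of the members, gave ratios on both sides of 0. Of 15 tested spots for ribosome assembly factors, 10 were above 0, with a median of 0.056, and Npm1, a nucleolar chaperone, had 0.072, 0.030, 0.16, 0.17 and 0.079 in pairs 1 to 5. Of 7 tested spots for cytoplasmic aminoacyl-tRNA synthetases, 2 were above 0, with a median of -0.016. The kinases of the pathway had 2 spots above and 2 below 0, with Mtor at 0.49, -0.034 and 0.27 in pairs 3 to 5 (mean 0.24). Mknk2, which phosphorylates eIF4E, lay as far the other way, at -0.17, -0.12, -0.49 and 0.014 in pairs 1, 2, 3 and 5 (mean -0.24). Fau, a small-subunit protein under another symbol, averaged 0.086. Tpt1 and Hnrnpa1, whose mRNAs also start with a TOP tract, averaged -0.012 and -0.070, and Hbs1l, a rescue factor for stalled ribosomes, averaged -0.11. None of these spots passed the test, at either threshold.

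All 3 spots for excitatory neuron markers and all 5 for interneuron markers were measured on at least 5 arrays. So were 2 of 2 choroid plexus spots, the 1 striatum spot and 3 of 4 spots for neutrophils and lymphocytes. Being measured therefore does not tell the labelled tissue from others. Over the 8 marker lists with a tested spot, list medians of collagen over control ran from -0.20 (choroid plexus, 1 spot) to 0.047 (neutrophils and lymphocytes, 1 spot). No marker passed the adjusted threshold. Camk2a, a kinase of excitatory neurons, was the marker below an unadjusted p of 0.05, with -0.48, -0.28 and -0.37 in pairs 3 to 5, while Tbr1 and Neurod6 of the same list averaged 0.17 and 0.0083. The part of cell composition in the members' ratios was not tested. Flag S is a letter the file headers do not define. Counting each spot on each array, it was set on 20 of 610 member values (3.28%) at the highest gain, always on ribosomal proteins. Over all annotated spots it was set on 209 of 90780 values (0.230%), with no matching for brightness. The median over ribosomal protein spots was 0.11 in each of the 3 readings taken at rising gain.

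The members' median kept its sign under most ways of processing and its size under fewer. It was 0.057 with the background added back and 0.036 from pairs 1 and 2 alone, a split chosen after the data were seen. The authors' deposited table gave 0.054, on a log scale whose base is not stated.

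**Figure D5:**
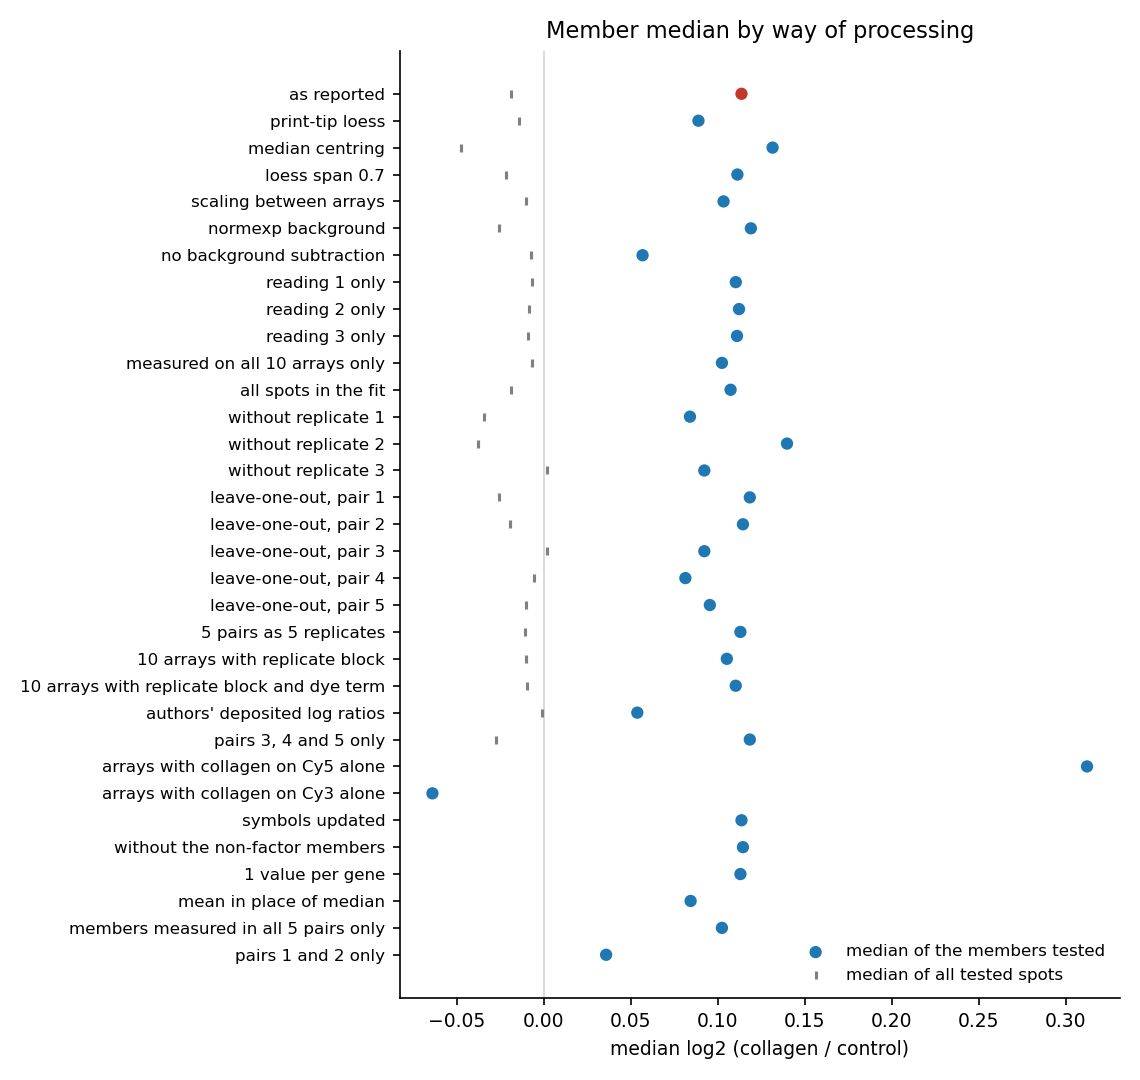
Median log2 ratio of collagen over control over the member spots tested under each way of processing (dots, red as reported), with the median of all tested spots where one was fitted (grey ticks). All dots lie between 0.036 and 0.14 except those from arrays of a single dye orientation, at 0.31 and -0.064.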

How the data were processed

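RNA of collagen and control mice was compared directly on 10 arrays, with 3 readings each. Per the file headers, a reading lists, for channels A and B, each spot's background-corrected intensity, its background and its flag. The authors' deposited table gives each array a score for every spot (a log ratio, base and normalisation unstated), used only as an alternative. Flags X, Y and Z were left out. Log2 ratios were normalised per reading by global loess (span 0.3) over 9078 annotated spots and averaged over readings, the arrays of a pair (both needed) and the pairs of a replicate. All 4125 spots with 3 replicate values were fitted in limma 3.58.1 (R 4.3.3, intercept, eBayes, Benjamini-Hochberg), with no covariate, and the dye effect likewise. The fits were checked on simulated data. Members and lists were chosen with earlier results of these data known. Genes were named by a rule: in each subgroup the 5 highest and 3 lowest moderated t, every tested Eef spot, every spot of genes with several, and the 4 highest and 4 lowest dye ratios. The others named (such as Rpl13a, Rpl26, Eif3c and Eif2b1) were chosen after their values were seen. Sequences are RefSeq's. No depth exists for arrays, and their number limits the precision.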

Additional observations from a re-analysis of the deposited data

Results flagged for a closer look

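In 39 sets of pair or array values that were tested for an outlier (Dixon's criterion at its 95% level), 3 held one. Chance flags about 1 in 20 independent sets. Many of the sets were of spots named for extreme values in these same data, and subgroup sets share spots. That rate therefore cannot tell how unusual these 3 are. Rps4x had a collagen over control ratio of -1.005 in pair 3, while its other pairs lay between 0.0083 and 0.24. Both arrays of that pair were below 0. Rps6 had 0.50 in pair 4, while its other pairs lay between -0.077 and 0.038. Its arrays there gave 0.95 with collagen on Cy5 and 0.045 with collagen on Cy3. Rpl7l1 had a Cy5 over Cy3 ratio of -0.76 in pair 3, while its other pairs lay between -0.17 and 0.052.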

How the results depend on the processing

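No member passed an adjusted p of 0.05 for collagen over control in limma under any of the 24 alternatives run. Replicate 3 is pair 3, so leaving out either is the same fit, counted under both names. At an unadjusted p under 0.05, 0 members were counted as reported. The count was 1 of 47 with print-tip loess (a loess for each grid), against 183 of all 4125 tested spots. It was 1 of 44 with reading 1 only (198 of 3132 over all) and 1 of 42 with reading 2 only (174 of 2785). It was 2 of 47 with scaling between arrays (348 of 4125) and 4 of 47 with the background added back (398 of 4135). The authors' deposited log ratios gave 4 of 32 (195 of 3178). The count was 1 of 47 with the 5 pairs as 5 replicates (359 of 4125 over all) and with the 10 arrays and a replicate block (342 of 4125). With the replicate block and a dye term it was 1 of 47 (298 of 4125). It was 3 of 44 with pairs 3, 4 and 5 only (249 of 3312), an alternative added after seeing the data. Leaving out a replicate or a pair gave 0 to 3, the highest being 3 of 46 without pair 2 (294 of 3889 over all). The pairs of a shared number correlated over spots at 0.103 and 0.185, and those of different numbers at -0.0082 to 0.194. The numbers are therefore not shown to pair them, and the replicate block is given only as an alternative. The dye effect had 1 member at an adjusted p under 0.05, the second Rpl11 spot. It had 0 with print-tip loess (spot at -0.98) and median centring (-1.67). It also had 0 with any single reading, with spots measured on all 10 arrays only and with pairs 3 to 5 only, where that spot was not tested. It had 11 with the background added back, 5 with the replicate block and 0 to 1 when a replicate or pair was left out.

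The median over the members (0.11) became 0.057 with the background added back, 0.054 with the authors' log ratios, 0.036 from pairs 1 and 2 only (added after seeing the data), 0.31 from arrays with collagen on Cy5 and -0.064 from those with collagen on Cy3, where Rpl had -0.11 and Rps -0.063. The cause was not tested, beyond the dye ratios given. It moved by less than its SD over replicates under the other 27 of 32 alternatives.

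Of the 29 named spots, 17 kept their direction under every alternative that measured them. None of the 12 others was called. Print-tip loess gave -0.0019 for Rpl7l1 (dye ratio 0.13), -0.036 for the second Rpl11 spot, 0.078 for Rpl29 and 0.074 for Eif3m. Median centring gave -0.045 for that Rpl11 spot, 0.15 for Rpl29, 0.024 for Rpl10a and 0.00020 for Eif4h. The added background gave -0.043 for Rpl11, -0.023 for Rps16, -0.027 for Rps6 and 0.00096 for Eif4h. The replicate block gave -0.21 for Rpl11 without and -0.21 with a dye term, 0.017 for Eif3m without, 0.016 and 0.013 for Rpl10a and 0.036 and 0.027 for Eif4h. The authors' log ratios gave 0.063 for Eif3m, 0.040 for Rpl10a, 0.010 for Eif4h and 0.021 for Eif3d. Span 0.7, scaling, and the 5 pairs as replicates gave 0.022, 0.021 and 0.011 for Rpl10a and 0.0016, 0.038 and 0.023 for Eif4h. Single readings gave 0.038 (1) and 0.011 (2) for Rpl10a and 0.0092 (1), 0.0043 (2) and 0.0055 (3) for Eif4h. Eif4h had 0.012 with normexp, and Rpl10a 0.00012 with all spots in the fit and 0.0087 from pairs 3 to 5 only. Leaving out a replicate or pair moved Rpl11 over -0.17 to 0.11, Rpl29 over -0.17 to 0.048, Eif3m over -0.17 to 0.085, Rpl10a over -0.026 to 0.028, Eif4h over -0.068 to 0.062, Rps6 over -0.032 to 0.15, the second Rps29 spot over -0.0012 to 0.29, Rpl27 over -0.32 to 0.094 and Rps4x over -0.47 to 0.091.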
